A study of Mus musculus with 2 samples.

Results

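Endothelial identity and blood-brain barrier genes were compared between WT and CD47 KO mice in cells isolated as brain mononuclear cells. The set holds 39 genes, chosen by name as markers, junction proteins, transporters, receptors and transcription factors of brain endothelium, among 18193 genes that the arrays name. A probe set, a group of short probes that read 1 transcript, was used where the annotation gives it exactly 1 gene symbol. By this rule 37 of the 39 genes had a probe set, 60 probe sets in all. *Ly6c1* had only a probe set shared with another symbol and *Ly6a* had none named, so both are not analysed here.

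Endothelial cells line every vessel of the brain. At the blood-brain barrier they are joined by tight junctions of claudin and occludin, take up glucose, amino acids and lactate through carriers, and pump many drugs back into the blood through ABC transporters. Vascular growth factor and angiopoietin receptors keep these cells alive and quiescent, and ETS and SOX transcription factors maintain their identity.

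The cells came from whole brains digested with collagenase and DNase I, and were recovered between the lower layers of a Percoll gradient, a fraction rich in microglia that can hold other cells. Undigested pieces were filtered out, and no marker was used to select endothelial cells. RNA of 7 WT mice (10 to 15 wks of age) and of 6 CD47 KO mice (12 to 16 wks), CD47 null by the labels, was pooled by genotype, and each pool was amplified from 20 ng and hybridised to 1 array. Sources used here do not name the strain. With 1 array per genotype the spread between animals is unknown, and no difference below carries a p-value. A lower signal in such a mixed sample can come from fewer endothelial cells or from less RNA per cell, and these cannot be told apart.

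Signals are MAS5 values, a linear brightness per probe set. The median over all probe sets was 161 in WT and 146 in CD47 KO cells. The Log2 ratio (KO/WT) used the deposited signals without rescaling, each gene was read from its probe set of highest mean signal, and it counted as expressed when this signal reached the array median on at least 1 array. *Cd47*, the targeted gene, had a signal of 5816 in WT and 1688 in CD47 KO cells. *Cldn5*, *Cdh5* and *Kdr*, defining genes of endothelium, were above the array median in both genotypes, as was *Pecam1*, which leukocytes carry too. Both pools are labelled male, yet *Xist*, the RNA of X inactivation, had signals of 7070 and 6530, and the Y-linked genes *Eif2s3y* (189 and 461) and *Kdm5d* (162 and 306) were brighter in the CD47 KO pool. The part of this in the results was not tested. The ratio of the 3′ to the 5′ control probe sets, a sign of RNA quality, was 2.06 and 2.16 for *Gapdh* and 1.11 and 1.05 for β-actin.

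Endothelial genes were mostly dimmer in the CD47 KO preparation. Of the 35 expressed members, 29 were lower and 6 higher, with a median Log2 ratio of -0.38 (1.30-fold lower). Over all 11682 expressed genes 49.7% were lower and the median was 0.00. More than 2-fold lower were 4 members, *Esam*, *Vwf*, *Ocln* and *Podxl* (11.4% of the 35, against 5.41% of all expressed genes). No member was more than 2-fold higher, as were 3.53% of all expressed genes. The members just inside and just outside the 2-fold line were *Podxl* with a Log2 ratio of -1.09 and *Icam2*, which was 1.996-fold lower. *Vwf* and *Tie1* passed the expression threshold through the WT array alone, which favours a lower value. Among the 33 members at or above the median on both arrays, 27 were lower and 3 more than 2-fold lower, where 49.6% and 2.42% of all such genes were.

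**Figure D1:**
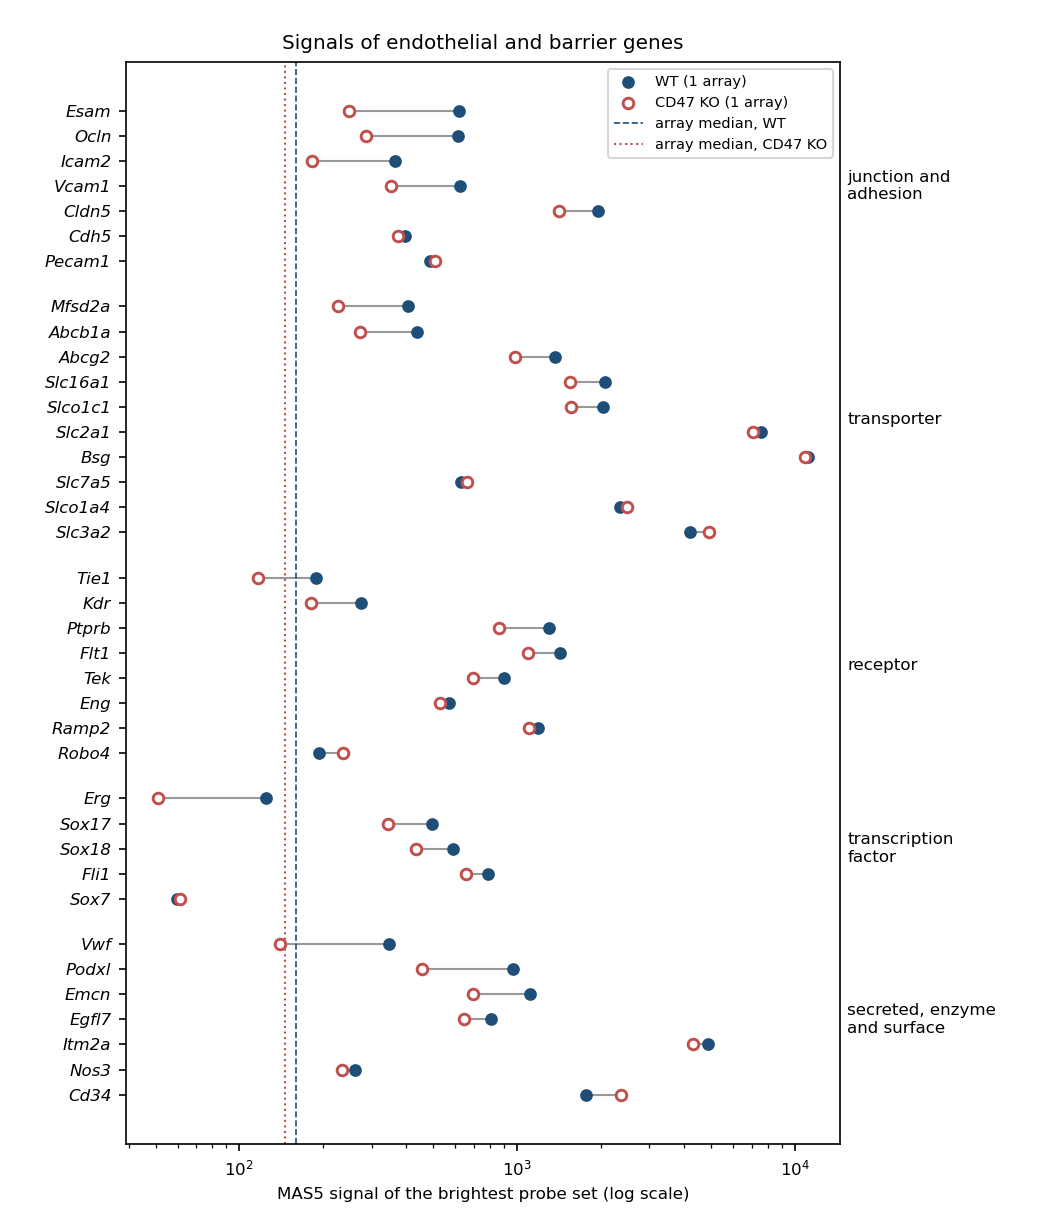
MAS5 signal (log scale) of the brightest probe set of each of 37 genes in WT (filled) and CD47 KO (open) brain mononuclear cells, 1 array each, with the median of each array as a vertical line. Most open points lie to the left of the filled ones, the widest gap among the expressed genes is that of *Esam*, and *Erg* and *Sox7* lie below the median on both arrays.

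Of the gene groups, the junction and adhesion genes had the lowest median. All 7 were expressed, 6 were lower, and the median Log2 ratio was -0.83. *Esam*, an adhesion molecule of endothelial tight junctions and of platelets, had signals of 619 and 248 (WT first, CD47 KO second, here and below), with a Log2 ratio of -1.32. Occludin, the membrane protein of tight junctions encoded by *Ocln*, had 613 and 286 (-1.10), and its dimmer probe set had 174 and 92.3, above the array median in WT cells alone. *Icam2*, a ligand of leukocyte integrins on resting endothelium, had 365 and 183. *Vcam1*, which binds leukocyte integrin α4β1 on activated endothelium, had 626 and 352 (-0.83) on its brightest probe set, while the others gave 0.56 and 0.23. The mean over the 3 *Vcam1* probe sets was -0.01, so its value depends on the probe set read. *Cldn5*, the claudin that seals the barrier against small molecules, had 1961 and 1420 (-0.47). *Cdh5*, which encodes VE-cadherin of adherens junctions, had 394 and 374 (-0.08), or -0.43 on its other probe set. *Pecam1* (CD31), which leukocytes and platelets carry too, had 488 and 509 (0.06). *Pecam1* and the brightest probe set of *Cdh5* were thus close to equal on both arrays. With the mean over all expressed probe sets of a gene the group median was -0.47, and it was no longer the lowest of the groups.

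Transporter genes were divided. All 10 were expressed, 7 were lower, none passed 2-fold, and the median Log2 ratio was -0.24. *Mfsd2a*, a carrier of lysophospholipids that also holds down vesicle transport across the endothelium, had a signal of 407 in WT and 226 in CD47 KO cells (-0.85). The drug efflux pump genes were lower as well. *Abcb1a*, encoding P-glycoprotein, had 436 and 272 (-0.68), but its second probe set gave 0.18, and *Abcg2*, encoding the other main efflux pump of the barrier, had 1374 and 986 (-0.48). Of the carriers with brighter probe sets, *Slc16a1*, the monocarboxylate transporter gene, had 2078 and 1553 (-0.42). *Slco1c1*, which carries thyroxine and is used by astrocytes too, had 2033 and 1563 (-0.38). All these differences from *Mfsd2a* on exceeded the SD between probe sets of like brightness, described below. The other widely used carriers lay within that SD. *Slc2a1*, the glucose transporter gene, had 7576 and 7060 (-0.10), with 0.14 and 0.02 on the others of its 3 probe sets. *Bsg*, which encodes the chaperone of monocarboxylate transporters, had 11121 and 10934 (-0.02). The amino acid transporter chains *Slc7a5* and *Slc3a2*, which form 1 complex, had 631 and 660 (0.07) and 4214 and 4907 (0.22). *Slco1a4*, an organic anion carrier held to be typical of brain endothelium, had 2358 and 2495 (0.08). The group median depended on the probe sets and the threshold used, between -0.40 and -0.063.

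All 8 receptor genes were expressed and 7 were lower, none by more than 2-fold on the brightest probe set, with a median Log2 ratio of -0.37. *Kdr*, the main signaling receptor for VEGF, had 276 and 182 (-0.60). *Flt1*, a VEGF receptor that also has a soluble decoy form, had 1428 and 1098 (-0.38), and its dimmer probe sets gave -0.48, -0.96 and -1.53. All 4 *Flt1* probe sets were thus lower, by amounts that differed widely. *Tek*, the angiopoietin receptor, had 897 and 696 (-0.37), its relative *Tie1* had 189 and 117 (-0.69), and *Ptprb*, the phosphatase that acts on Tek and VE-cadherin, had 1306 and 862 (-0.60). The other *Ptprb* probe sets gave -1.05 and 0.40. The remaining receptor genes stood near equal. *Eng*, a co-receptor of the TGF-β family, had 569 and 529 (-0.11), and *Ramp2*, part of the adrenomedullin receptor, had 1189 and 1109 (-0.10). *Robo4*, an endothelial Roundabout receptor, was the 1 receptor gene that was higher, with 194 and 236 (0.28), a difference within the SD between probe sets.

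Of the 5 transcription factor genes, 3 were expressed and all 3 were lower, with a median of -0.45. *Sox18* had 588 and 432 (-0.45) and *Sox17* had 493 and 344 (-0.52), both factors of the SOX group that directs endothelial fate. *Fli1*, an ETS factor of endothelium and blood cells, had 784 and 655 (-0.26) on one probe set and 774 and 315 (-1.30) on the other. *Sox7* and the ETS factor gene *Erg* did not reach the median on either array. *Erg* had 125 and 51.2 and *Sox7* had 59.9 and 61.1, so their ratios are those of dim probe sets.

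Because ETS and SOX factors are among the members, the 250 bases before the start of each gene were searched for their letters in a RefSeq promoter table (GRCm38.p6). The table holds 22 of the 39 members. *Bsg*, *Cdh5*, *Esam*, *Fli1*, *Icam2*, *Ly6a*, *Nos3*, *Pecam1*, *Podxl*, *Ptprb*, *Ramp2*, *Slc7a5*, *Sox7*, *Sox17*, *Sox18*, *Vcam1* and *Vwf* have no entry. The ETS core AGGAAG, on either strand, was in at least 1 window of 14 of the 22 members (63.6%) and of 32.3% of all 27025 genes of the table. A motif shared by FOX and ETS factors, ACAGGAA, was in 4 members (18.2%) and in 8.13% of all genes. The SOX letters ACAAT were in 7 members (31.8%) and in 30.9%. These shares are descriptions of letters and not of binding sites. Windows of *Emcn* and *Tie1*, which hold the ETS and FOX:ETS letters, are shown beside that of *Cldn5*, which holds none of the 3 motifs. Signals of all 3 genes were lower in CD47 KO cells (-0.68, -0.69 and -0.47). Among the holders of the ETS core, *Cd34* (0.42), *Robo4* (0.28) and *Slco1a4* (0.08) were higher. A link between letters and signals was not tested. The windows were chosen after the matches were known. Each is written 5′ to 3′ on the strand of the gene and ends at the base before its start, with the matched letters in capitals. In *Emcn* the ETS and FOX:ETS letters overlap in the first run.
Emcn, chr3:137340828-137341077, + strand: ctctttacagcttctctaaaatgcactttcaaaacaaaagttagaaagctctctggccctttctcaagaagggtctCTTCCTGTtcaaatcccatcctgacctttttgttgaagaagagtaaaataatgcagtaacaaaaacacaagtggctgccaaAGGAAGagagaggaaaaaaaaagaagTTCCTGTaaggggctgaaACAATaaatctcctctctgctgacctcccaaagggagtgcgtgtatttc
Tie1, chr4:118489850-118490099, - strand: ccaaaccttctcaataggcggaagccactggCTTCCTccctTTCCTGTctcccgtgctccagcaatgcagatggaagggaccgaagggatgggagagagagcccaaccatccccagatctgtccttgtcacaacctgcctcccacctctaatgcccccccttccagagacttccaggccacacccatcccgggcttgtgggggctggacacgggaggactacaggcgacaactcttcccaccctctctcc
Cldn5, chr16:18776597-18776846, + strand: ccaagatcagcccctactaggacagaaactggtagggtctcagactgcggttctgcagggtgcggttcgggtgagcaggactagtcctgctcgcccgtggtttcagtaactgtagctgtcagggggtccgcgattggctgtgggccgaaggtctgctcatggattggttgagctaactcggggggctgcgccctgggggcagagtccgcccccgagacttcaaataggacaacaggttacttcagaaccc

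Among secreted, enzyme and surface glycoprotein genes, 7 of 9 were measured, all 7 were expressed and 6 were lower, with a median of -0.32. *Vwf*, the clotting factor that endothelium and platelets store, had a signal of 345 in WT and 141 in CD47 KO cells (-1.30). The sialomucin genes, which encode glycoproteins of the luminal surface, differed from each other. *Podxl* had 971 and 456 (-1.09, and -0.81 on its other probe set), and *Emcn* had 1116 and 697 (-0.68). *Cd34*, a sialomucin gene of endothelium and of blood progenitors, was higher, with 1775 and 2366 (0.42), and was the member with the highest Log2 ratio. *Egfl7*, a secreted protein gene of endothelium, had 807 and 646 (-0.32), and all 4 of its probe sets were lower (-0.24 to -1.06). *Itm2a*, a membrane protein gene of endothelium and T cells, had 4869 and 4287 (-0.18), and -0.24 on its other probe set. *Nos3*, the endothelial nitric oxide synthase gene, had 262 and 234 (-0.17). *Vwf*, *Podxl* and *Emcn* were thus lower and *Cd34* higher by more than the SD between probe sets of like brightness, described below, and *Vwf* reached the array median in WT cells alone. The group median was -0.56 with the mean over expressed probe sets and -0.18 without probe sets marked by their names as matching several transcripts.

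**Figure D2:**
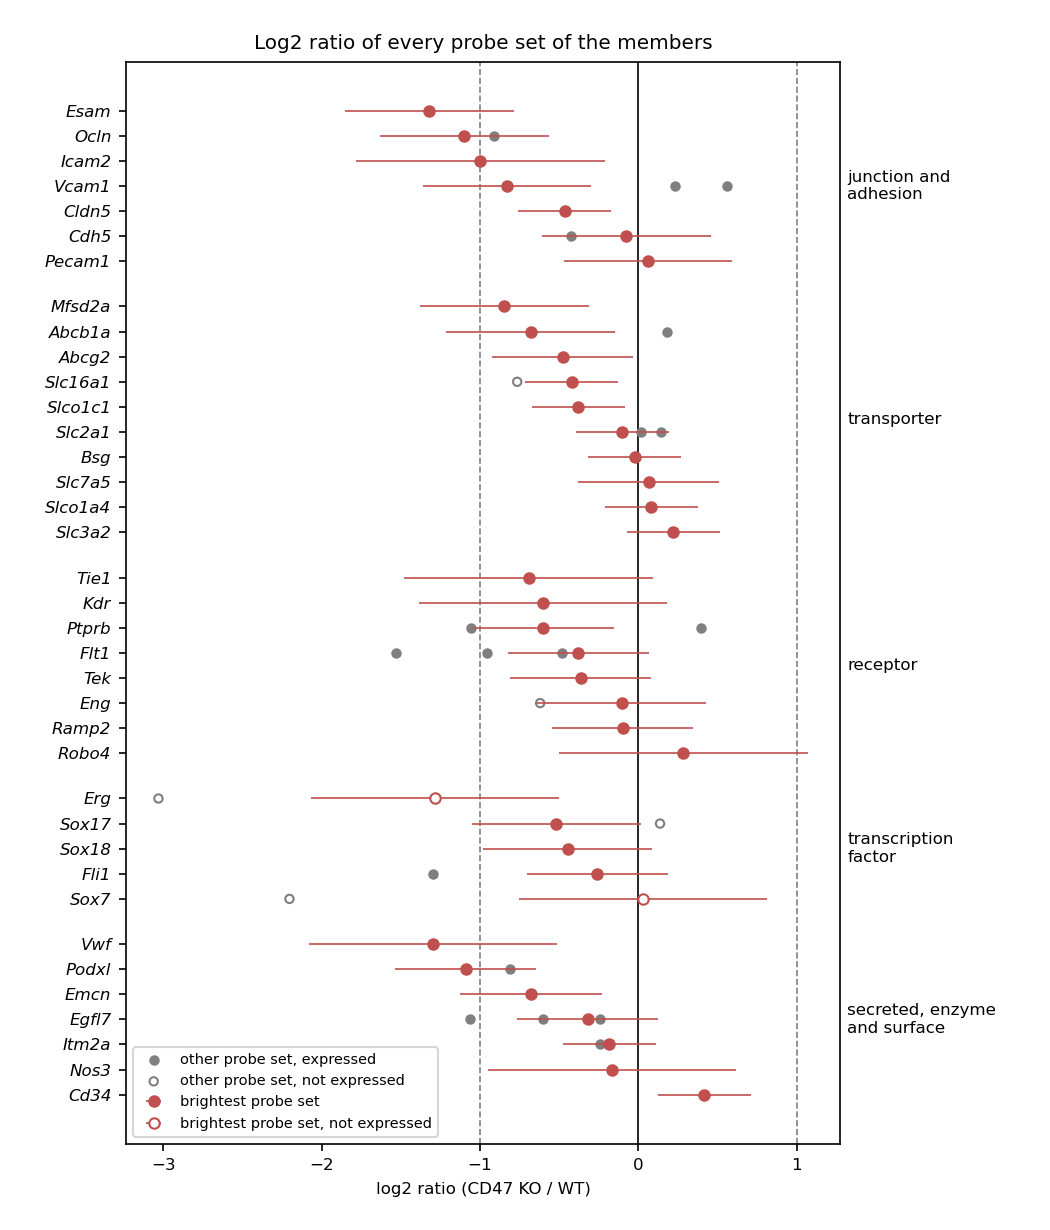
Log2 ratio (KO/WT) of all 60 probe sets of 37 genes, with the brightest of each gene in red, the others in grey and open symbols for probe sets that did not reach the array median. Bars are ± 1 SD between probe sets of 1 gene in the same class of brightness, dashed lines mark 2-fold, and 4 genes (*Vcam1*, *Abcb1a*, *Slc2a1* and *Ptprb*) have expressed probe sets on both sides of 0.

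Other probe sets of a gene are the only internal repeat that these arrays offer, and their disagreement also holds probe effects and splice forms. Of the 53 expressed probe sets of the members, 41 were lower (77.4%, against 49.3% of all expressed probe sets) and 8 were more than 2-fold lower (15.1%, against 5.49%), and none was more than 2-fold higher. These 8 belong to 8 genes, the 4 above with *Flt1*, *Ptprb*, *Fli1* and *Egfl7*. In 3 of them, those of *Vwf*, *Flt1* and *Egfl7*, the signal reached the median on the WT array alone, which favours a lower ratio. Of the 48 probe sets at or above the median on both arrays, 36 were lower and 5 more than 2-fold lower, where 49.4% and 2.29% of all such probe sets were. Of the 11 members with 2 or more expressed probe sets, 7 had all of them lower, 4 had both signs and 0 had all higher. With probe sets above the median on both arrays, 6 of 10 members had all of them lower and 4 had both signs. The same counts were not made over all genes with 2 or more expressed probe sets, so these counts have no background. Expressed genes were divided by signal into 4 classes of equal size. The SD between probe sets of a gene was 0.78 in the dimmest class, 0.53 and 0.45 in the middle classes and 0.29 in the brightest. Beyond the SD of their own class, 14 members were lower and 1, *Cd34*, was higher, and 20 lay within it. Of all expressed genes, 15.5% were lower and 13.1% higher by more than this SD.

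The direction was seen at each level of brightness. In the dimmest class of expressed genes 5 of 6 members were lower, where 54.9% of all genes were. In the next classes 9 of 10 members were lower in each, against 53.9% and 50.3% of all genes. In the brightest, 6 of 9 members were lower, against 39.6%. The median Log2 ratio of the members was -0.65, -0.60, -0.37 and -0.10 from the dimmest to the brightest class, where that of all genes was -0.11, -0.05, 0.00 and 0.05. Without *Vwf* and *Tie1*, which passed through the WT array, the dimmest class had 3 of 4 members lower and a median of -0.38, so there was no steady order from class to class. Below the 5th percentile of their class lay 4 members, *Esam*, *Ocln*, *Podxl* and *Cldn5*, and above the 95th none.

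**Figure D3:**
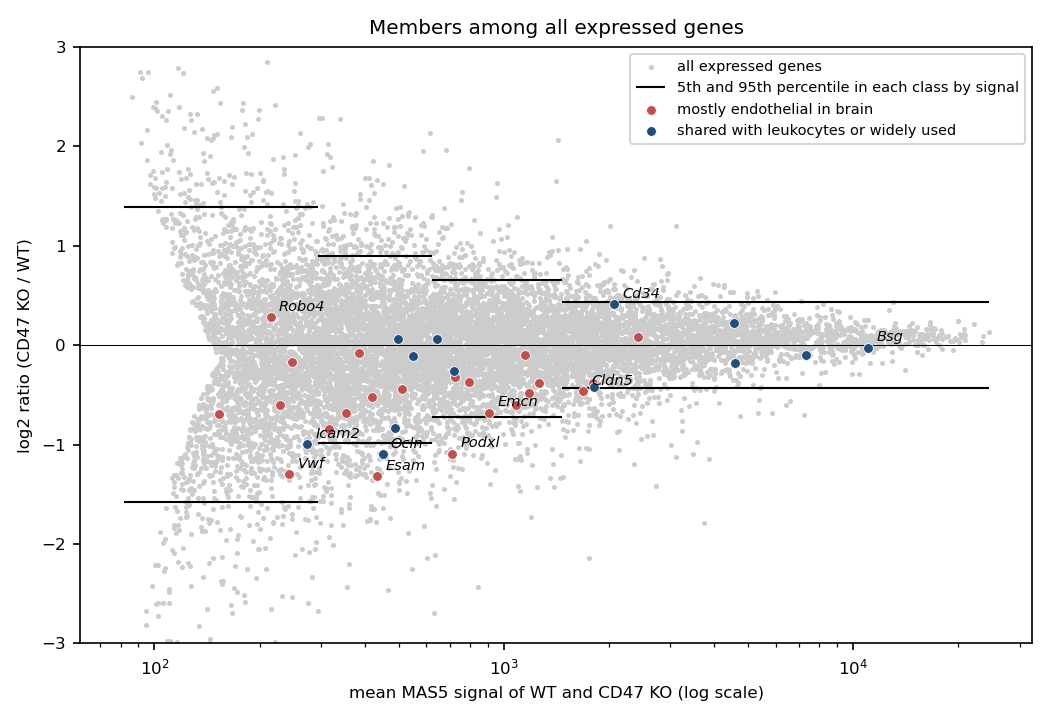
Log2 ratio (KO/WT) against mean signal (log scale) for all expressed genes (grey) and the 35 expressed members, in red for genes mostly endothelial in brain and blue for those that leukocytes or many cells also use. Black lines are the 5th and 95th percentiles in each class by signal, 37 genes lie beyond the axis limits of -3 and 3, and most members lie below 0 with *Esam*, *Ocln*, *Podxl* and *Cldn5* under the lower line.

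Many members are used by other cells of the preparation too, so they were split by general knowledge of their expression. The 24 genes that are mostly endothelial in brain had 22 expressed members, of which 20 were lower, with a median Log2 ratio of -0.47. The 2 that were higher were *Slco1a4* and *Robo4*. The 15 genes shared with leukocytes or widely used had 13 expressed members, of which 9 were lower, with a median of -0.11. This median was -0.26 without the marked probe sets and -0.024 with the mean over expressed probe sets. The set holds *Pecam1*, *Bsg* and *Slc2a1*, which were near equal, and *Cd34*, which was higher. It also holds *Ocln* (-1.10), *Icam2* (-0.997), *Vcam1* (-0.83 on its brightest probe set) and *Slc16a1* (-0.42). The summed signal in CD47 KO cells was 75.5% of that in WT cells for the first set and 96.0% for the second. The difference between the sets has no test with 1 array per genotype.

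Other genes of barrier and vessel biology, listed by hand, are given beside the members, with no test between the lists. Of 13 expressed genes of tight junctions outside the members, 7 were lower, 6 were higher and the median was -0.08. Among the higher ones, *Tjp3* (0.14) and *Lsr* (0.61) reached the array median in CD47 KO cells alone, which favours a higher value. The lowest were *Jup* (-0.84), *Cldn1* (-0.68) and *Cgnl1* (-0.63, and -0.62 to -1.32 over its 4 expressed probe sets). The brightest were *Ctnnb1*, encoding β-catenin, with 0.01 (-0.06 to 0.28 over 3 probe sets), *F11r*, encoding junctional adhesion molecule A, with 0.19, and *Cldn12* with -0.25. Of 14 further barrier transporters, 7 were lower and the median was 0.00. The brightest, *Slco2b1* (0.17), *Slc7a1* (-0.06) and *Slc6a6* (-0.18), each had expressed probe sets on both sides of 0. *Slc22a8*, an organic anion transporter gene, had -1.09, or -0.53 on its other probe set. Genes of caveolae and transcytosis had 7 of 10 lower and a median of -0.04. The brightest were *Tfrc* with -0.09 and *Lrp1* with 0.06, up to 0.39 and 0.60 on their other probe sets, and *Cav1*, encoding caveolin-1, with signals of 952 and 925. *Plvap*, which marks leaky vessels, had 151 and 148. These lie close to the array medians of 161 and 146, and below that of WT, so its ratio is that of a dim probe set. *Cavin1*, a coat protein gene of caveolae, had 502 and 132 and so reached the array median in WT cells alone, and its other expressed probe set gave a Log2 ratio of -0.67. *Slc22a8*, *Cavin1*, *Tjp3*, *Lsr*, *Jup*, *Cldn1* and *Cgnl1* were named after their values were seen.

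Signaling genes that act on the members were mixed. Of 8 expressed genes of Wnt and Norrin signaling, which induces the barrier, 5 were lower and the median was -0.23. The brightest, *Lrp6*, a Wnt co-receptor gene, had 0.36 and, on its other probe set, -0.48, *Apcdd1*, a target gene in endothelium, had -0.31, and the transcription factor gene *Lef1* had -0.16. *Wnt7b*, a ligand gene of the barrier, had 214 and 39.9, below the array median in CD47 KO cells, and *Reck*, which encodes part of its receptor complex, had 446 and 166 (-1.43), both named after their values were seen. Ligands, co-receptors and related receptors of the member receptors had 6 of 10 expressed genes higher and a median of 0.22. The higher ones were *Nrp1*, *Nrp2*, *Calcrl* (0.49), *Flt4* (0.26), *Acvrl1* (0.53) and *Slit2*, of which *Slit2* alone is a ligand gene. *Acvrl1*, with 158 and 229, reached the array median in CD47 KO cells alone. The 4 lower ones were the ligand genes *Adm*, *Vegfa*, *Vegfb* and *Vegfc*. *Vegfa* had 525 and 365 (-0.53). *Adm*, the adrenomedullin gene whose receptor holds Ramp2, had -0.14, and the neuropilin genes *Nrp1* and *Nrp2*, co-receptors for VEGF, had 0.28 and 0.18. The other expressed probe set of *Nrp1* gave 0.99, and the 3 of *Nrp2* ranged from 0.17 to 0.74. Past 2-fold lower was *Vegfb* with 658 and 279 (-1.24). *Vegfc* with 190 and 85.5 and *Slit2* with 88.3 and 222 also passed 2-fold, in opposite directions, but each reached the array median on 1 array alone. All genes of this list but *Adm*, *Nrp1* and *Nrp2* were named after their values were seen. Notch pathway genes of arteries and veins had 5 of 9 lower and a median of -0.36. Among the lower ones, *Jag2* with 226 and 133 and *Gja4* with 165 and 98.9 reached the array median in WT cells alone. This favours a lower count and median, and both were named after their values were seen. *Hey1*, a Notch target gene of arteries, had 1889 and 1057 (-0.84), *Notch1* had 0.50 and, on its other probe set, -0.31. *Nr2f2*, a venous transcription factor gene, had 0.04, with -0.15 to 1.05 over its 3 expressed probe sets. Genes of inflamed endothelium were evenly divided, 3 of 6 lower with a median of 0.01. *Icam1*, a leukocyte adhesion gene, had -0.28, *Lcn2*, which neutrophils carry too, had -0.61 and *Socs3*, a feedback inhibitor gene, had 0.25, with -0.24 at the lowest of its 3 probe sets. *Sele*, the endothelial selectin gene, did not reach the array median in either genotype.

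Most markers of the other vessel-associated cells were lower beside the endothelial genes. Mural cell markers had 8 of 12 expressed genes lower and a median of -0.51, and a summed signal in CD47 KO cells of 72.4% of that in WT cells (10741 against 14844). Their brightest genes were *Rgs5* with -0.61, *Acta2*, the smooth muscle actin gene, with signals of 4004 and 2002, and *Vtn* with 0.18. The others of the 4 higher genes were *Abcc9*, *Higd1b* (0.56, above the array median in CD47 KO cells alone) and *Kcnj8* (0.33). *Abcc9* had 249 and 558 (1.17), past 2-fold higher, and -0.06 on its other expressed probe set. *Cspg4*, with 306 and 78.0, reached the array median in WT cells alone. *Abcc9*, *Higd1b*, *Kcnj8* and *Cspg4* were named after their values were seen. Fibroblast and meningeal markers had 13 of 15 lower, a median of -0.71 and a summed signal of 78.4% (21928 against 27985). Their brightest genes were *Ptgds* (-0.08), *Mgp* (-0.30) and *Igfbp2* (-0.65). *Col3a1* with 244 and 127 and *Lum* with 223 and 117 reached the array median in WT cells alone, which favours a lower value. *Pdgfra* had 0.84 on its brightest probe set, with -2.33 at the lowest of its 3. *Col3a1*, *Lum* and *Pdgfra* were named after their values were seen. Mostly lower too were choroid plexus markers (9 of 11 lower, median -0.39), monocyte and macrophage markers (9 of 9, -0.54) and neutrophil markers (9 of 11, -0.29). Platelet markers, which bear on *Vwf*, *Esam* and *Pecam1*, had 3 of 6 lower and a median of -0.16, with summed signals of 3631 in WT and 3112 in CD47 KO cells. The part of these cells in the values of the members was not tested.

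Microglial and astrocyte markers lay on the other side. All 17 expressed microglial markers were higher, with a median of 0.16 and a summed signal of 114% of that in WT cells. *C1qb*, a complement gene, had signals of 19785 and 20909. *Sall1* had 0.02, or -0.58 on its other probe set. These markers are in the brightest class, where 39.6% of all expressed genes were lower and the median was 0.05. Astrocyte markers had 8 of 11 higher and a median of 0.28. They include *Slco1c1*, the member that astrocytes share, and without it the median was 0.30. Neuronal (0.00), lymphocyte (0.01) and oligodendrocyte markers (0.08) had medians near 0. The lymphocyte list was split, with 5 of 10 lower, from -2.34 for *Cd3e* to 0.77 for *Cd3g*. *Cd3e* with 326 and 64.3 and *Ms4a1* with 461 and 117 reached the array median in WT cells alone, which favours a lower median. These genes were named after their values were seen. Of the erythroid markers 2 were expressed, *Slc4a1* with 0.52 and *Alas2* with 0.42.

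**Figure D4:**
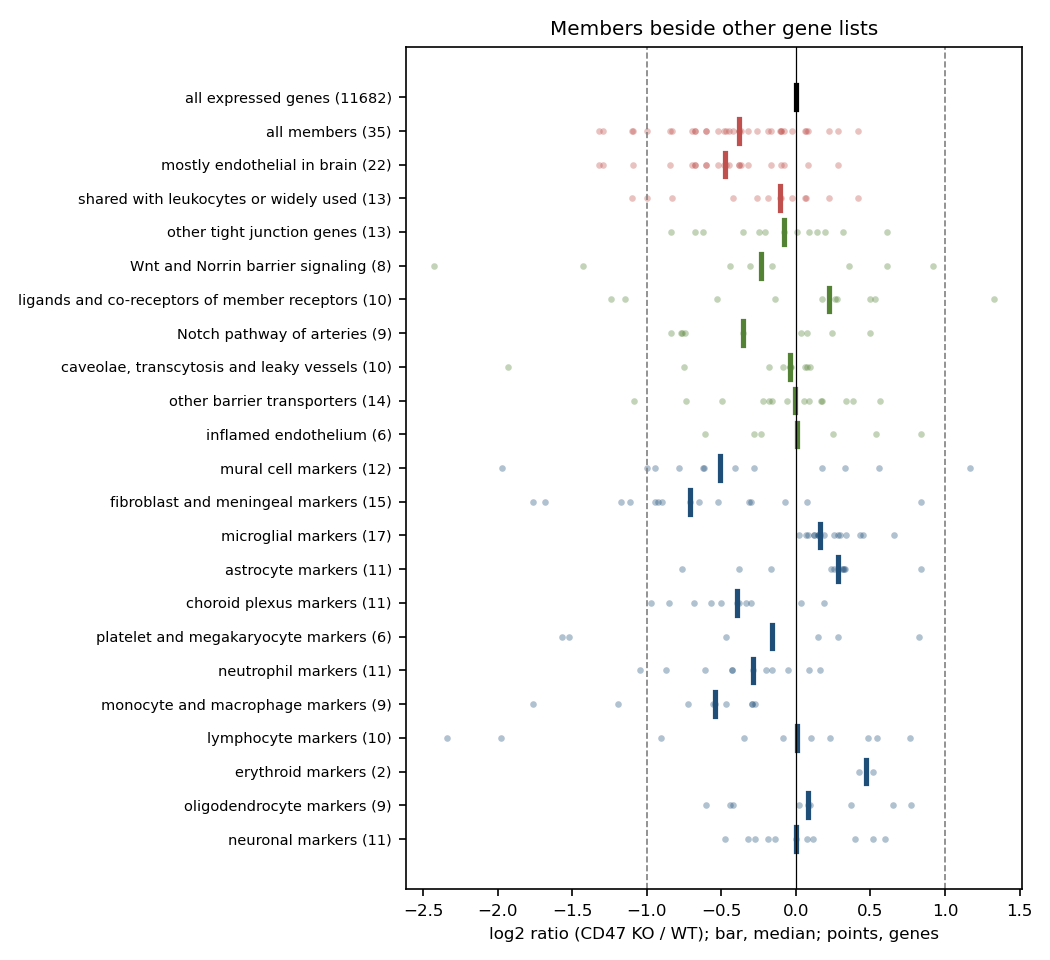
Points are expressed genes of a list, set by their Log2 ratio (KO/WT), bars are medians and numbers in parentheses count the genes, for the members (red), other barrier and vessel genes (green) and cell type markers (blue). The members' median of -0.38 lies between that of microglial markers (0.16) and that of fibroblast and meningeal markers (-0.71), and dashed lines mark 2-fold.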

How the data were processed

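RNA of brain mononuclear cells, pooled by genotype, was read on 2 Affymetrix GeneChip Mouse Genome arrays, 1 per genotype. The deposited values are MAS5 signal intensities, which the authors made with the Expression Console Software in a version that is not stated. The 2% trimmed mean was 500.002 on both arrays, so they behave as scaled by a common factor. No detection calls were used. Names came from the annotation of the platform. It has exactly 1 symbol for 34945 of 45101 probe sets and several for 932. Another 9160 are unnamed here and 64 are controls. Only the first kind was used. Log2 ratios (KO/WT) had no offset.

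The members and lists were chosen with earlier results of these data known, and the 19 other lists were written by hand. All members are named in the text, with the 3 brightest genes of a list where a result turned on them. Results were recomputed under 10 alternatives and the calculation was tested on simulated arrays. Sequences come from the RefSeq promoter table of GRCm38.p6. Python 3.11.15 with numpy 2.4.6, pandas 2.3.3, statsmodels 0.14.6 and matplotlib 3.10.9 was used. Having 1 array per genotype limits the precision.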

Additional observations from a re-analysis of the deposited data

How the results depend on the processing

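The median Log2 ratio over all members was negative under all 10 alternatives, from -0.46 without probe sets whose names end in _x_at, _s_at or _a_at to -0.37 with the 25th percentile of all signals added to both. No member was more than 2-fold higher under any of them, 3 to 5 were more than 2-fold lower, and 20 to 30 were lower. The number of expressed members changed too, with 20 of 24 lower at the 75th percentile threshold and 30 of 37 with no threshold. Of all expressed genes, 46.3% and 52.7% were lower in these settings. The group medians depended more on the choice of probe set and threshold. With the mean over expressed probe sets, the junction genes had -0.47, the transporters -0.14 and the secreted, enzyme and surface genes -0.56. Without the probe sets named above, of which 28 expressed members were left, the receptors had -0.48, the transporters -0.40, the secreted, enzyme and surface genes -0.18 and the genes shared with other cells -0.26. With the threshold at the 75th percentile, which 24 members passed, the junction genes had -0.96 and the transporters -0.063. Quantile, loess and centred values moved no group median by 0.1 or more. Of 361 values recomputed for single members, 359 kept their sign. Many of these could not change it. A changed threshold leaves the ratio of a member as it is, and raising signals to the 25th percentile altered no member. For a member with 1 expressed probe set the mean is its own value. *Slc2a1* alone changed sign. The share of all expressed genes past 2-fold lower ranged from 2.07% with the 75th percentile threshold to 12.2% with no threshold, so the count of 4 members has no fixed background. No paired analysis was possible because each genotype has 1 array.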
